A study of Mus musculus with 2 samples.

Results

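The nuclear pore and karyopherin transport genes are the genes of the channel through the nuclear envelope and of the carriers that move cargo through it. They were taken by gene symbol: any symbol beginning with Nup, Kpna, Kpnb, Ipo, Xpo or Tnpo followed directly by a digit, together with Ran, Rangap1, Ranbp1, Ranbp2, Rcc1, Tpr, Rae1, Pom121, Ndc1, Aaas and Seh1l. This gave 46 of the 12393 genes that the platform annotation names by 1 symbol, read by 95 of 22626 probe sets. Of the 46 genes, 22 encode pore proteins, 20 transport receptors and 4 proteins of the Ran cycle. Tpr, a protein of the nuclear basket, was not named by any probe set used and was not analysed here.

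The arrays compared mouse NIH 3T3 fibroblasts, an embryonic cell line, after Lipofectamine transfection with either of 2 plasmids. The ATCE1-C-del array carried RNA of cells given the pHA-CMV-ATCE1-C-del plasmid, which expresses a form of the transcription factor ATCE1 that lacks the C terminus. The empty vector array carried RNA of cells given pHA-CMV without insert. Both were from total RNA taken 48 hours after transfection, and the plasmids share the CMV promoter, and no label gives the share of cells that took up DNA. There was 1 array per group, so no value has a replicate error, no test was made, and every difference below describes these 2 arrays.

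ATCE1, now called Creb3l4, belongs to the CREB3 family of basic leucine zipper factors, which are made as membrane proteins of the endoplasmic reticulum and reach the nucleus once cut free. The pore itself is a ring of nested scaffolds. An outer Y-shaped complex and an inner ring shape the membrane, transmembrane proteins anchor them, and proteins rich in phenylalanine-glycine repeats fill the channel. Importins bind cargo in the cytoplasm and release it in the nucleus when they meet Ran bound to GTP, whereas exportins bind cargo together with Ran-GTP and release it outside. Rcc1 loads Ran with GTP on chromatin, and Rangap1 and Ranbp1 promote GTP hydrolysis at the cytoplasmic face.

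Promoter sequences are shown for 4 members, because a CREB-type factor is known to bind the cAMP response element TGACGTCA or its core TGACG. RefSeq promoters of the build GRCm38.p6 were matched for 38 of the 46 genes, and the 250 bases before the annotated start were searched on both strands. Those not matched are Kpna1, Kpna3, Kpna6, Nup43, Nup85, Seh1l, Xpo4 and Xpo7. Nup133 (chr8:123949266-123949515, minus strand) is shown as the only member with the full element, Ndc1 (chr4:107367797-107368046, plus strand) and Kpnb1 (chr11:97187893-97188142, minus strand) as the pore and receptor genes with the highest log2 ratio among those matched, and Nup107 (chr10:117792706-117792955, minus strand) for its other motifs. Capitals mark TGACG or TGACGTCA on either strand in Nup133, Ndc1 and Kpnb1, and the NRF1 palindrome followed by TTCCCGC on either strand in Nup107.
Nup133: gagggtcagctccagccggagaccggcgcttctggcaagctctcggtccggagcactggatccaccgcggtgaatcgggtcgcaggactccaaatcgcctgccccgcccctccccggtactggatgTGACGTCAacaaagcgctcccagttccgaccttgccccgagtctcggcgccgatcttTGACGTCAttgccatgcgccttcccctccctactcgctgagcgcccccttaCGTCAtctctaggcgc
Ndc1: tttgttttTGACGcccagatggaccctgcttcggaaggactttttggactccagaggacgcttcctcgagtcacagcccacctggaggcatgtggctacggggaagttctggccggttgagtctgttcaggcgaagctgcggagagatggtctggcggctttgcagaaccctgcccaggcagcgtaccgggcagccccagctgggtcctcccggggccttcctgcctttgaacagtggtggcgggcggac
Nup107: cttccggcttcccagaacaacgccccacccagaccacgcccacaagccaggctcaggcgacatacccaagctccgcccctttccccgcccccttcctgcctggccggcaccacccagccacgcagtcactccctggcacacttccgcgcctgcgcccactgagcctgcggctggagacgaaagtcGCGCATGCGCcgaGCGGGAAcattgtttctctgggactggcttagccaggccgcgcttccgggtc
Kpnb1: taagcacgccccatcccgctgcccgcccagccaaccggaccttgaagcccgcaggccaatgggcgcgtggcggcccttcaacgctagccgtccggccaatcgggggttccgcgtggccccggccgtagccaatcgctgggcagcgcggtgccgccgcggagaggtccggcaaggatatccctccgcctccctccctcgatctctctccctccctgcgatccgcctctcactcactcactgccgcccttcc

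The window of Nup133 held TGACGTCA at 124 and at 67 bases before the start, and a further TGACG at 16 bases. Each full element contains the core on both strands, so these count as 5 cores. Ndc1 had 1 core, 242 bases before the start, and Kpnb1 had none. The full element lay in 1 of 38 members (2.63%), against 2.20% of 17491 protein coding genes in the RefSeq table. The core lay in 8 of 19 pore genes (42.1%), 5 of 15 receptor genes (33.3%) and 1 of 4 Ran cycle genes, against 22.6% of the protein coding genes. Of the 14 members with a core, 11 were higher under ATCE1-C-del and 3 lower (Ranbp2, Pom121 and Tnpo3), and of the 23 measured members searched without one, 19 were higher and 4 lower. Member promoters were richer in G and C (median 62.8%, against 55.6% for promoters of protein coding genes), and the part this plays in the counts was not tested. The palindrome bound by NRF1, the first run of capitals in Nup107, lay in 5 of 38 members (13.2%, against 1.21%), namely Nup107, Nup50, Nup62, Xpo5 and Ran. The ETS-type motif CCGGAAGT lay in 5 of 38 (13.2%, against 4.26%), the E2F-type TTCCCGC in 5 (13.2%, against 5.69%) and TTGGCGC in Ipo7 alone (2.63%, against 2.93%). A match of letters is not a binding site, and binding was not measured here.

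Signals are MAS5 intensities, and a floor at each array's median (77.5 for ATCE1-C-del and 75.9 for empty vector) stands in for a detection call. A gene is called measured if its brightest probe set, which stands for the gene, reached the floor on at least 1 array. Of the 46 members, 45 were above the floor on both arrays. Nup210, a transmembrane pore protein, was the exception, at 3.30 under ATCE1-C-del against 2.40 under empty vector. Of all genes, 6806 were measured. All log2 ratios are of ATCE1-C-del over the empty vector, so a positive value means a higher signal with ATCE1-C-del. From 2451 genes read by a second probe set above both floors, the SD of a single probe set's ratio came to 0.20. It leaves out any variation between cultures and labelling reactions that both probe sets of a gene share. The signal of Creb3l4 was under the floor on both arrays and does not check the labels. Of 12 fibroblast markers, 11 were measured, while 0 of 8 epithelial and 0 of 6 endothelial markers and 2 of 7 macrophage markers on the arrays reached the floor (Cd14 and Cd68). Of the fibroblast markers, Postn, a matrix protein, was 1.58-fold lower under ATCE1-C-del and Pdgfrb, a growth factor receptor, 1.36-fold lower, while the others measured had log2 ratios between -0.09 and 0.16. Their part in the ratios below was not tested.

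The members as a whole were slightly higher with ATCE1-C-del. Of 45 measured genes, 35 were higher and 10 lower, where 48.7% of all measured genes were higher and 51.3% lower. Their median log2 ratio was 0.13 (1.09-fold), against -0.0060 over all measured genes. Directions are relative to the bulk of the array. Scaled to array medians, 33 of 45 members were higher, and the median of all genes was -0.04. Scaled to 18 hybridisation control probe sets instead, the median of all genes was 0.27 and 44 of 45 members were higher. With that scaling, of the members given as lower below, only Xpo7 stayed lower. Which scaling is nearer to RNA amounts in the cells was not tested. Only Nup43 passed 1.5-fold, and no member was 1.5-fold lower, where 0.926% of all genes reached that size upward and 1.07% downward. At a log2 ratio of 0.32 or beyond, 4 members were higher (Nup43, Ndc1, Nup160 and Kpnb1) and 0 lower, against 6.69% and 7.89% of all genes. In whole cultures, a change in the share of cells of one kind and a change in RNA per cell cannot be told apart.

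**Figure D1:**
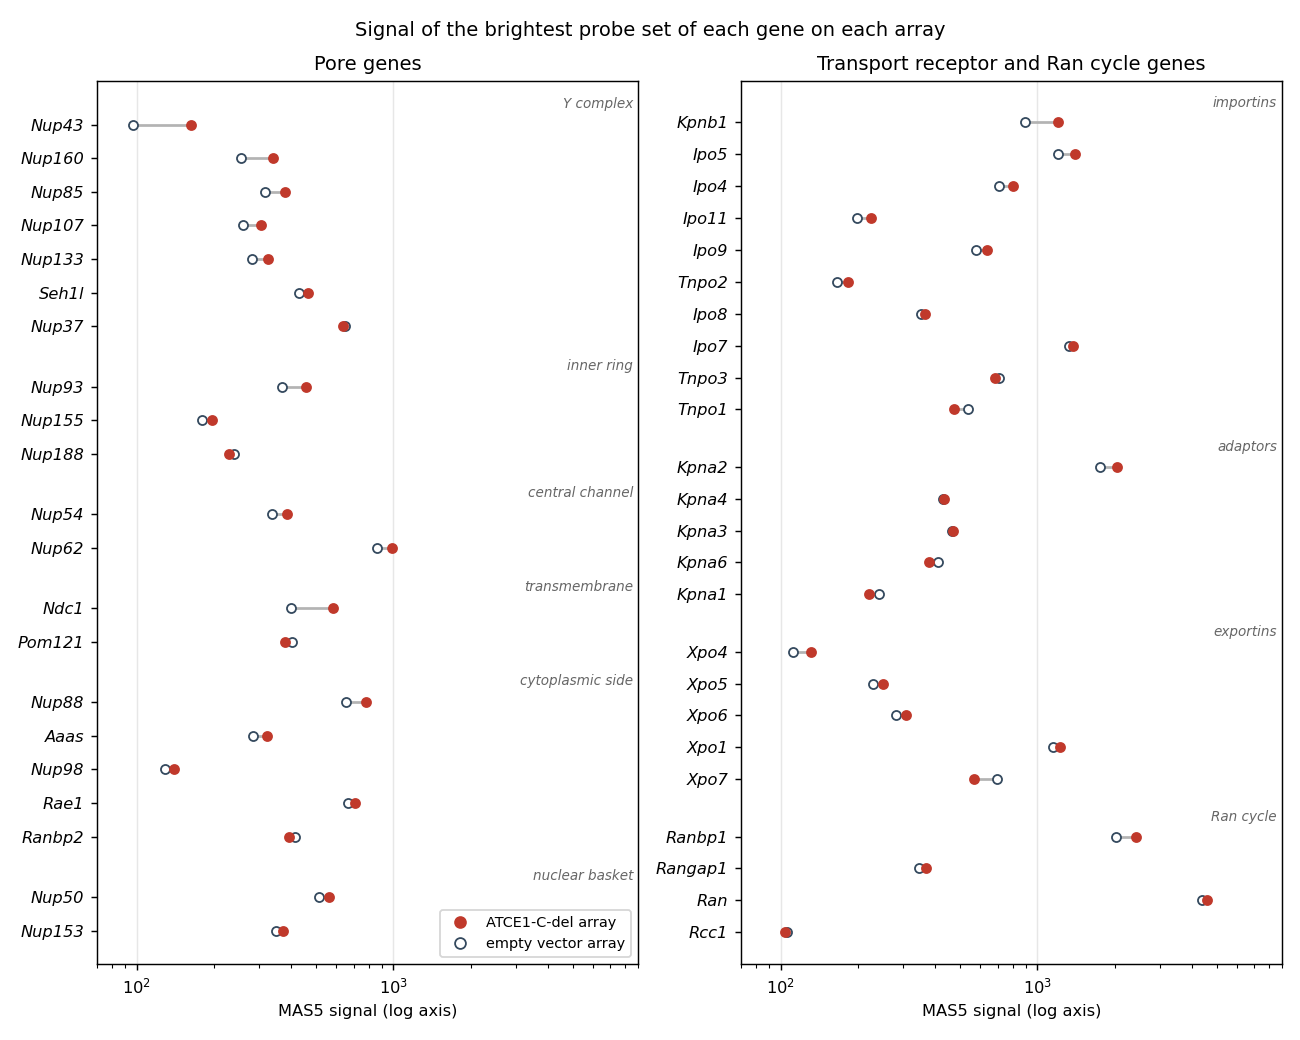
MAS5 signal (log axis) of the brightest probe set of each of the 45 measured members on the ATCE1-C-del array (filled red) and the empty vector array (open), grouped by role. Levels of different genes are read by different probes and cannot be compared; within a row, 35 genes have the red point to the right.

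Pore genes had the larger median. Of 21 measured pore genes, 17 were higher under ATCE1-C-del and 4 lower (median log2 ratio 0.18, or 1.13-fold). The ratios ranged from -0.10 to 0.75. The Y complex, the outer scaffold of the pore, had 6 of 7 genes higher and a median of 0.23. The central channel genes Nup54 and Nup62 were both higher, and the nuclear basket genes Nup50 and Nup153 were higher by 0.13 and 0.10 (log2). The 4 lower genes, Nup37, Nup188, Ranbp2 and Pom121, lay between -0.03 and -0.10 and came from 4 different parts of the pore.

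Nup43, a small scaffold protein of the Y complex, read 162 under ATCE1-C-del against 96.9 under empty vector, 1.68-fold higher. Its other probe set read 135 against 96.2 (1.40-fold). Both probe sets were thus higher with ATCE1-C-del, at signals not far above the floor, and only the one that can match several transcripts passed 1.5-fold. Nup160, a long scaffold arm of the Y complex, had a single probe set at 339 under ATCE1-C-del against 256 under empty vector (1.32-fold higher). Nup85, which pairs with Seh1l in the short arm, read 378 against 316 (1.20-fold higher), while its dimmer probe set had a log2 ratio of 0.11. The stem of the Y holds Nup107 and Nup133. Nup107 read 304 under ATCE1-C-del against 259 under empty vector (1.17-fold higher) on its only probe set, which can match several transcripts. Nup133 read 325 under ATCE1-C-del against 281 under empty vector (1.16-fold higher). Its next probe sets were also higher, at log2 ratios of 0.19 and 0.45, and the faintest, at 9.70 against 7.20, lay under both floors. All 3 of its measured probe sets were thus higher. Seh1l was 1.08-fold higher on its brightest probe set (466 against 430). Of its 4 other measured probe sets, 3 were higher, at 0.30, 0.47 and 0.49, and the dimmest was lower, at -0.08. The last Y complex gene, Nup37, was near level, at 637 under ATCE1-C-del against 650 under empty vector (log2 ratio -0.03).

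Among the membrane anchors, Ndc1 was higher and Pom121 slightly lower, by less than the SD of a single probe set's ratio. Ndc1, a transmembrane protein needed for inserting pores, read 581 under ATCE1-C-del against 400 under empty vector, 1.45-fold higher. Its second probe set read 198 against 137 (1.45-fold), so 2 probe sets gave log2 ratios of 0.54 and 0.53. Aaas, which is held at the pore by Ndc1, read 323 against 285 (1.13-fold higher). Pom121, the other anchor, read 377 under ATCE1-C-del against 404 under empty vector, and its log2 ratios were -0.10 and -0.11 on 2 probe sets.

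The inner ring supports the channel from within. Nup93, its linker, read 458 under ATCE1-C-del against 370 under empty vector (1.24-fold higher). Nup155 was 1.09-fold higher on the brightest probe set (196 against 180) and 1.41-fold on the other (153 against 109). Nup188 was near level, at 230 against 239 (log2 ratio -0.06). In the channel, Nup62, whose repeats form the transport barrier, read 985 under ATCE1-C-del against 866 under empty vector (1.14-fold higher), and its other measured probe sets lay at log2 ratios of 0.20 and 0.33. Its partner Nup54 read 387 against 335 (1.15-fold higher), with another probe set at 0.36 and a dim one at a bound of at least 0.06.

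On the cytoplasmic side, Nup88, which anchors the export filaments, read 783 under ATCE1-C-del against 655 under empty vector (1.20-fold higher). Its only probe set can match several transcripts. The mRNA export partners Nup98 and Rae1 had log2 ratios of 0.12 and 0.09. Ranbp2, the giant filament protein that binds Ran and SUMO-modified Rangap1, was lower on both of its probe sets, at 391 under ATCE1-C-del against 415 under empty vector on the brighter one (log2 ratio -0.08) and -0.23 on the other. In the nuclear basket, Nup153 had a log2 ratio of 0.10. Nup50, a cofactor in the release of import cargo, had 0.13 on its brightest probe set, -0.20 on the next and 0.08 on the dimmest, so its direction depends on the probe set.

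**Figure D2:**
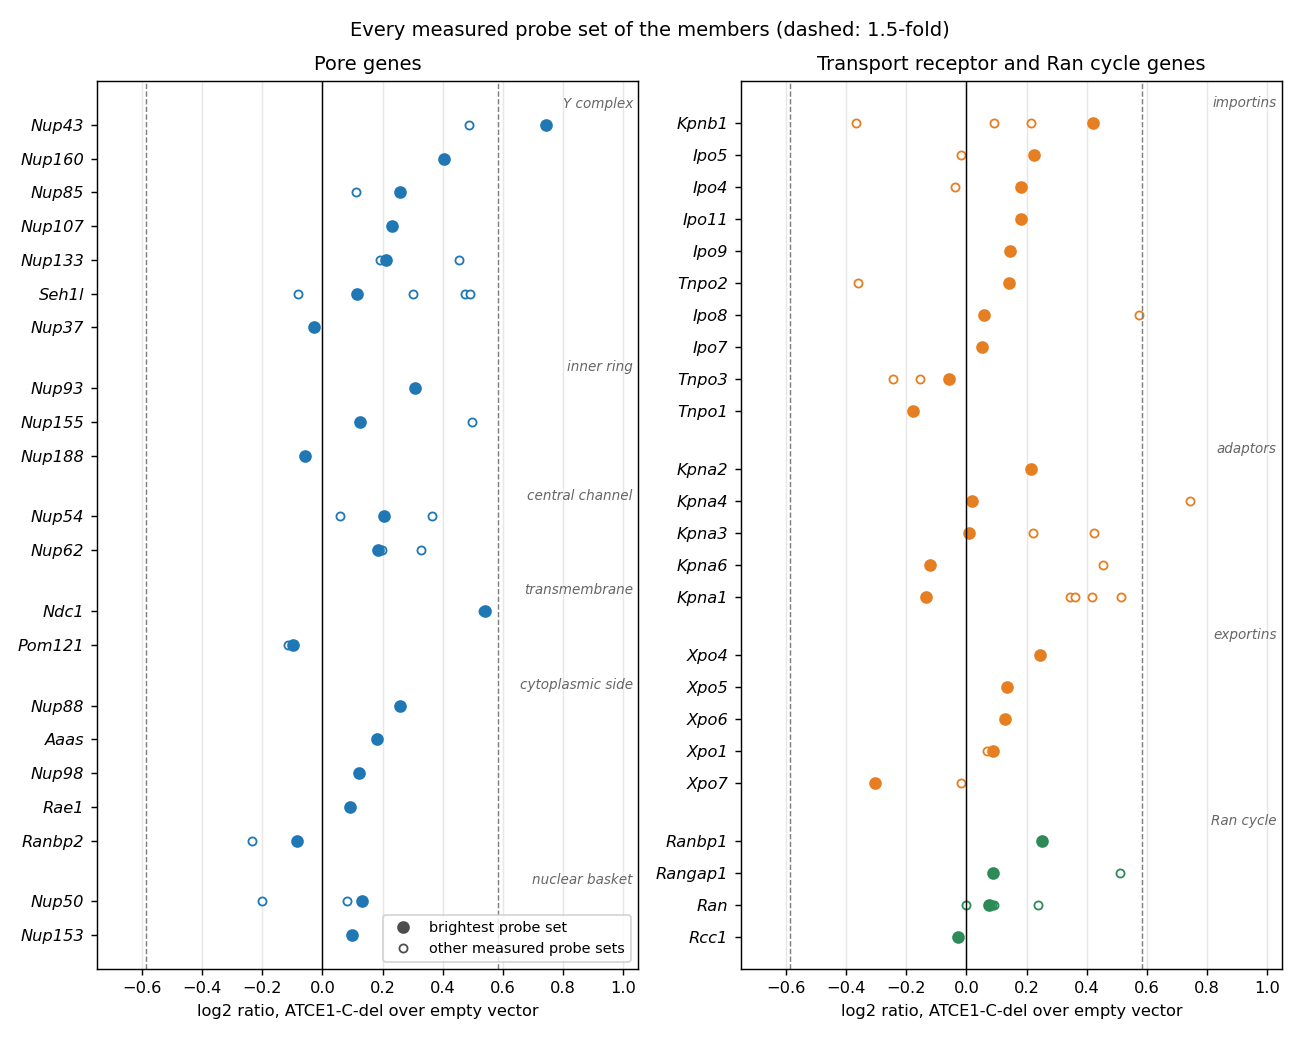
Log2 ratio (ATCE1-C-del over empty) for every measured probe set of the members, by role, with the brightest probe set of each gene filled and the others open; dashed lines mark 1.5-fold. Ndc1 and the Y complex lie mostly right of 0, from -0.08 on the dimmest measured probe set of Seh1l to 0.75 for Nup43, while Kpnb1 spans -0.37 to 0.42.

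Transport receptors were higher by less. Of 20 measured receptor genes, 15 were higher under ATCE1-C-del and 5 lower (median log2 ratio 0.11, or 1.08-fold; mean 0.07). Their range ran from -0.30 to 0.42. No receptor passed 1.5-fold in either direction. Importins had 8 of 10 genes higher and a median of 0.14, exportins 4 of 5 and 0.13, and the importin alpha adaptors 3 of 5 and 0.0089. Among their other measured probe sets, 3 of 9 were higher for importins, 1 of 2 for exportins and 8 of 8 for adaptors. Of those 8, 2 are bounds that could only come out higher. Over all genes, 52.4% of 3940 measured probe sets other than the brightest were higher.

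Kpnb1, importin beta, carries most classical import cargo through its Kpna adaptors. Its brightest probe set read 1200 under ATCE1-C-del against 896 under empty vector (1.34-fold higher). A second read 699 against 655 (1.07-fold higher), another 464 against 400 (1.16-fold higher), and the remaining one went the other way, at 554 against 716 (1.29-fold lower). The probe sets of Kpnb1 therefore do not settle its direction, and their mean log2 ratio was 0.09. The one that was lower can match several transcripts, as can the one at 1.16-fold.

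The other importins carry cargo without an adaptor. Ipo5, an importer of ribosomal proteins and histones, read 1401 under ATCE1-C-del against 1199 under empty vector (1.17-fold higher), but its other measured probe set was level, at a log2 ratio of -0.02. Ipo4, which imports histones, read 803 against 707 (1.14-fold higher), and its dimmer probe set had a log2 ratio of -0.04. Ipo11, an importer of ubiquitin-conjugating enzymes, read 225 under ATCE1-C-del against 199 under empty vector (1.13-fold higher) on its only probe set. Ipo9, also a histone importer, had a log2 ratio of 0.14, and Ipo7, a carrier of ribosomal proteins, had 0.05. Ipo8, its close relative, had 0.06 on its brightest probe set and 0.57 on a dim one near the floor (115 against 77.1). The transportins include both lower importins. Tnpo1, which imports RNA binding proteins such as hnRNP A1, read 473 under ATCE1-C-del against 535 under empty vector (1.13-fold lower). Tnpo3, the carrier of SR splicing factors, was lower on all 3 probe sets, at log2 ratios of -0.06, -0.24 and -0.15. Tnpo2, a paralogue of Tnpo1, had 0.14 on one probe set and -0.36 on the other.

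Kpna2, the adaptor most tied to proliferating cells, read 2044 under ATCE1-C-del against 1760 under empty vector (1.16-fold higher). The other adaptors were level or lower on their brightest probe sets, at log2 ratios of 0.0089 for Kpna3, 0.02 for Kpna4, -0.12 for Kpna6 and -0.13 for Kpna1. Their 8 other measured probe sets were all higher, from 0.22 to 0.74, but 2 of them are bounds. Those 2, of Kpna1 and Kpna6, lay under the floor with empty vector and could only come out higher. The sign thus differed between probe sets for Kpna1, and for Kpna6 through its bound alone, and was positive throughout for Kpna3 and Kpna4.

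Among the exportins, Xpo1, the main exporter of proteins with leucine-rich signals, read 1229 under ATCE1-C-del against 1155 under empty vector (1.06-fold higher), and a second probe set had a log2 ratio of 0.07. Xpo4, an exporter of the translation factor eIF5A, read 132 against 111 (1.18-fold higher). Xpo5, which exports microRNA precursors, and Xpo6, which exports actin, had log2 ratios of 0.14 and 0.13. Xpo7, an exportin of broad cargo range, was the lowest of all members, at 566 under ATCE1-C-del against 699 under empty vector (1.24-fold lower). Its other probe set was level, at 234 against 237, so the difference of Xpo7 rests on 1 probe set that can match several transcripts.

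On their brightest probe sets the Ran cycle genes lay close to the receptors, with 3 of 4 higher and a median log2 ratio of 0.08. Without probe sets that can match several transcripts, the median was 0.24 over 3 genes, against 0.09 for receptors. With second brightest probe sets it was 0.30 over 2 genes, against 0.07 for receptors. Ran itself read 4587 under ATCE1-C-del against 4359 under empty vector (log2 ratio 0.07). Of its 4 other measured probe sets, 3 were also higher, at 0.09, 0.08 and 0.24, and 1 was level, at -0.0020. The 0.24 belongs to the only measured Ran probe set without the suffix of several possible transcripts. The sign of the brightest Ran probe set depended on the processing, at -0.03 with quantile normalization and -0.02 with lowess. Ranbp1, which helps to strip Ran-GTP from receptors, read 2411 against 2023 (1.19-fold higher). Rangap1, the GTPase activator, read 370 under ATCE1-C-del against 347 under empty vector on its brighter probe set (1.06-fold higher) and 231 against 162 on the other (1.42-fold higher). Rcc1, the nucleotide exchange factor on chromatin, was level and not far above the floor, at 104 under ATCE1-C-del against 106 under empty vector.

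Set against each other, the median log2 ratio of pore genes exceeded that of receptor genes by 0.07. Genes are not replicates, so no test of this difference was made. By count the classes were close, at 17 of 21 pore genes and 15 of 20 receptor genes higher. Scaled to array medians, 17 of 21 pore genes and 13 of 20 receptor genes were higher. The highest 25% of all measured genes began at a log2 ratio of 0.13, and 12 of 21 pore genes and 10 of 20 receptor genes lay in it. The lowest 25% ended at -0.15, and 0 pore genes and 2 receptor genes (Tnpo1 and Xpo7) lay in it.

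**Figure D3:**
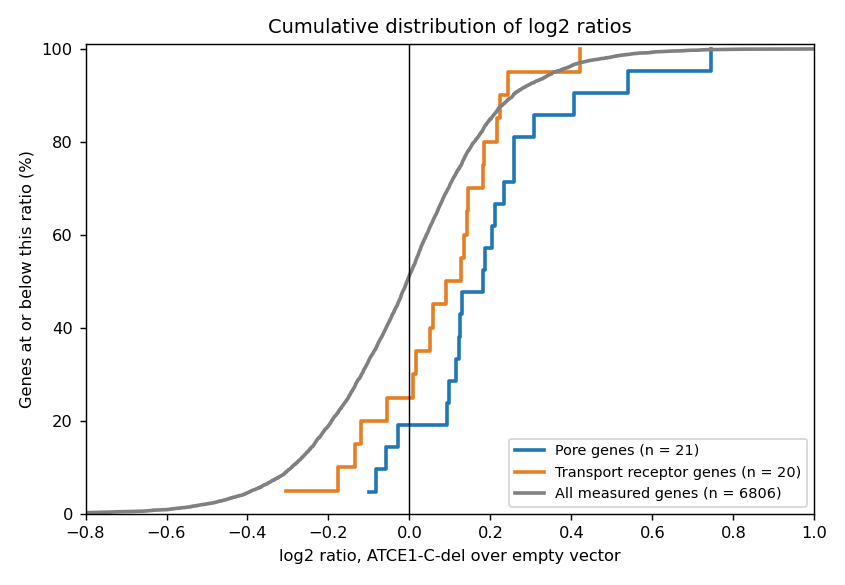
Cumulative share of genes (%) at or below each log2 ratio (ATCE1-C-del over empty), for 21 pore genes, 20 transport receptor genes and all 6806 measured genes. The medians are 0.18 for pore genes, 0.11 for receptor genes and -0.0060 for all genes.

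Probe sets of one gene lay closer together in the pore class than in the receptor class on these arrays. Among 11 pore genes with at least 2 probe sets above both floors, the 2 brightest lay on the same side of 0 in 10, and these pairs gave a single probe set an SD of 0.14 (log2). Among 11 receptor genes they lay on the same side in 7, with an SD of 0.28. Over all 2451 genes with such pairs the SD was 0.20, between the 2 classes. The second brightest probe sets were higher with ATCE1-C-del in 8 of 11 pore genes (median log2 ratio 0.20) and in 6 of 11 receptor genes (median 0.07). Over all genes, 52.4% of measured probe sets other than the brightest were higher, so the receptor count lay near that share. Over all measured probe sets, 7 of 11 pore genes were higher on every one (Ndc1, Nup133, Nup155, Nup43, Nup54, Nup62 and Nup85), 2 lower on every one and 2 mixed. Of 12 receptor genes, 4 were higher on every one (Ipo8, Kpna3, Kpna4 and Xpo1), 2 lower on every one (Tnpo3 and Xpo7) and 6 mixed. The dimmest measured probe sets of Nup54, Kpna1 and Kpna6 reached the floor on the ATCE1-C-del array alone, so they could only count as higher. The matching same-side and every-probe-set counts over all genes were not computed.

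**Figure D4:**
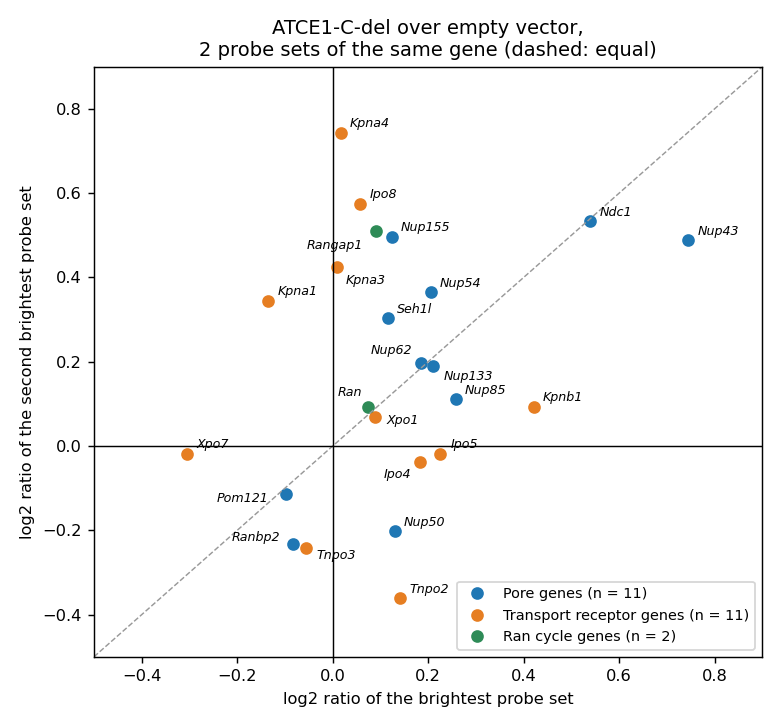
Log2 ratio of the brightest probe set (x axis) against that of the second brightest (y axis) for 24 members with at least 2 probe sets above both floors; the dashed line marks equal ratios. Ndc1 lies on the line at 0.54 and 0.53, while Kpna4 (0.02 and 0.74) and Tnpo2 (0.14 and -0.36) lie far from it.

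Other genes of the pathway were given by lists. Of 18 measured genes of further transport factors, 11 were higher and 7 lower (median log2 ratio 0.06), and 0 passed 1.5-fold. Nxt1, the partner of the mRNA exporter Nxf1, read 459 under ATCE1-C-del against 313 under empty vector (1.47-fold higher). Ranbp9 and Ranbp10, Ran-binding scaffold proteins, were lower at log2 ratios of -0.30 and -0.30, and Xpot, the tRNA exporter, at -0.27. Of 18 measured nuclear envelope genes, 10 were higher and 8 lower, with a median of 0.05. Syne1, a giant linker to the cytoskeleton, was 1.42-fold lower, and Zmpste24, the lamin A protease, 1.30-fold higher. Lrrc59, a membrane protein of the endoplasmic reticulum and envelope, had a log2 ratio of 0.37, and Nrm, of the inner nuclear membrane, 0.33. Of 16 measured mRNA export genes, 9 were higher and 7 lower, with a median of 0.03, between the exon junction protein Rbm8a at -0.27 and the export adaptor Alyref at 0.26. The sign of the mRNA export median depended on the processing: it was -0.0025 with array medians, -0.0042 with a floor at the 75th percentile, -0.0301 as a mean over probe sets and -0.0782 on second brightest probe sets. The nuclear envelope median was -0.0167 without probe sets that can match several transcripts.

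Cell cycle genes were also higher, and by more. Of 23 measured, 21 were higher and 2 lower (median log2 ratio 0.37), led by the centromeric histone Cenpa (0.62), the replicative helicase subunits Mcm2 (0.61) and Mcm4 (0.53), and the spindle motor Kif11 (0.58). Their part in the ratios of the pore and receptor genes was not tested.

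**Figure D5:**
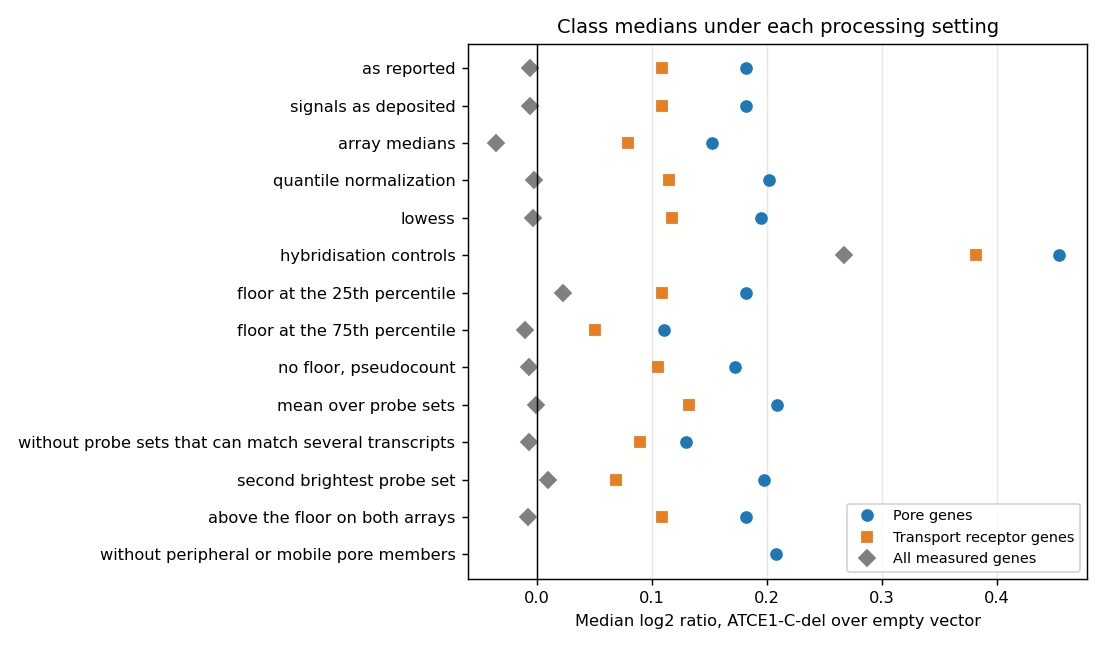
Median log2 ratio (ATCE1-C-del over empty) for pore genes (circles), transport receptor genes (squares) and all measured genes (diamonds) as reported and under each processing alternative; the last row redefines the pore class alone. The pore median ran from 0.11 to 0.45 and the receptor median from 0.05 to 0.38, and in each of these settings that gave both values the pore median was the higher. Deposited signals, array medians and hybridisation controls shift all ratios alike, so these settings could not change that order.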

How the data were processed

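RNA of 2 transfected NIH 3T3 cultures was read on 1 array each. The deposited values are linear intensity; MAS5 is the tool that the submitters' processing notes name. No version, target value or detection call is given in the sources used here. The trimmed mean (2% at each end) was 250.1 on both arrays. Of 22690 probe sets, 64 AFFX controls were left out.

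Signals were divided by the trimmed mean, values under the array's median were set to it, and the log2 ratio was taken. Each gene was represented by its brightest probe set (mean log2 signal of both arrays). Genes were named from GEO's platform annotation. Where 1 array was under the floor the ratio is a bound. Probe sets with the suffixes _s_at, _x_at or _a_at can match several transcripts. Every probe set of Nup85, Nup88, Nup107, Aaas, Ipo4, Xpo5, Xpo6 and Rangap1 has such a suffix.

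Members, roles and lists were chosen with earlier results of these data known. Every member may be named; those given in full are the Ran cycle genes, Kpnb1, and the 8 pore and 8 receptor genes with the largest absolute log2 ratio. At most 4 genes per further list are named, by size of ratio. Protein lengths and repeats were not used here. With 1 array per group no test was made and array number limits precision. The procedure was tested on simulated data with changes larger than the class medians reported here. That test does not cover differences as small as these medians. Alternatives covered scaling, floor, probe set choice and fold threshold. Tools were scipy 1.17.1 (trimmed mean), statsmodels 0.14.6 (lowess), pandas 2.3.3, numpy 2.4.6, matplotlib 3.10.9 and Python 3.11.15.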

Additional observations from a re-analysis of the deposited data

How the results depend on the processing

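No paired analysis was possible because each group had 1 array, and for the same reason none could be left out. The medians of pore and receptor genes kept their sign in all alternatives run, and the pore median minus the receptor median stayed between 0.04 and 0.13, the highest value, 0.129, with the second brightest probe sets. Deposited signals, array medians and hybridisation controls shift all ratios alike, so they could not change this difference. It was also unchanged, at 0.0726, with a 25th percentile floor and with genes above the floor on both arrays. Scaled to 18 hybridisation control probe sets, the median log2 ratio of all genes turned to 0.267, and those of members, pore, receptor and Ran cycle genes moved to 0.401, 0.454, 0.382 and 0.355. With that scaling 44 of 45 members were higher, 3 pore genes and 1 receptor gene passed 1.5-fold, and the medians of the cell cycle, mRNA export, nuclear envelope and further transport lists were 0.648, 0.299, 0.321 and 0.328. Relative to all genes this scaling changed no median. A floor at the 75th percentile left 34 of 45 members measured and held some of them at the floor on 1 array, such as Nup160 (0.105). The pore and receptor medians were then 0.110 and 0.051, over 16 and 15 genes. In that setting 0 pore genes passed 1.5-fold, and the mRNA export median turned to -0.0042. A 25th percentile floor turned the median of all genes to 0.0227. Without probe sets that can match several transcripts the pore median was 0.130, the Ran cycle median 0.239 and the nuclear envelope median -0.0167, with 0 pore genes past 1.5-fold. With second brightest probe sets, which fewer genes have, 16 of 24 members, 8 of 11 pore genes and 6 of 11 receptor genes were higher, 0 pore genes and 1 receptor gene (Kpna4) passed 1.5-fold, the Ran cycle, cell cycle, mRNA export and nuclear envelope medians were 0.301, 0.229, -0.0782 and 0.243, and the median of all genes turned to 0.01. Averaging probe sets gave 0.175 for the Ran cycle, 0.306 for the cell cycle and -0.0301 for mRNA export, which array medians turned to -0.0025. Past a log2 ratio of 0.32 in place of 1.5-fold, 3 pore genes and 1 receptor gene were higher. Of the genes given in full, Kpnb1 (0.09 as a mean over probe sets), Xpo7 (-0.02 on its other probe set) and Rangap1 (0.51 on its second) depended most on the probe set. Ran turned to -0.0283 with quantile normalization and to -0.0182 with lowess. Apart from the shifts named, the cause was not tested. Signals near the floor limit Nup43 and Rcc1.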

Other observations

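In 4 of the 5 importin alpha adaptors, the probe set that stood for the gene had a lower log2 ratio than every other measured one, a pattern chosen after the values were seen. Kpna2, the other adaptor, has 1 probe set. The sign differed for Kpna1, and for Kpna6 only through a bound, while Kpna3 and Kpna4 were higher on every measured probe set. Kpna1, Kpna3, Kpna4 and Kpna6 had log2 ratios between -0.13 and 0.02 on the probe set that stood for each gene. Their 8 other measured probe sets were all higher with ATCE1-C-del, from 0.22 to 0.74 with a median of 0.42, where 52.4% of the 3940 such probe sets over all genes were higher. Of the 8, 2 (of Kpna1 and Kpna6) reached the floor on the ATCE1-C-del array alone, so their direction was fixed by the floor. Kpna4 read 154 under ATCE1-C-del against 91.9 under empty vector on its second probe set (1.67-fold higher), against 433 and 428 on its brightest. All 4 dimmer probe sets of Kpna1 were higher, at 0.34, 0.42, 0.36 and a bound of at least 0.51, while its brightest, which can match several transcripts, was lower. For Kpna3 the other probe sets were not dim, at 523 under ATCE1-C-del against 390 under empty vector on one and 327 against 281 on the other. For Kpna6 the second read 104 against 68.6, the empty vector signal lying under the floor. In the importins the other probe sets went both ways, with 3 of 9 higher and a median of -0.04.

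In the Y complex, of the 8 other measured probe sets of Nup43, Nup85, Nup133 and Seh1l, 7 were higher with ATCE1-C-del, with a median log2 ratio of 0.38. Over all genes, 52.4% of such probe sets were higher. Seh1l had 0.12 on its brightest probe set, 0.30 to 0.49 on 3 others and -0.08 on the dimmest. The adaptors and the Y complex were not tested against each other. The positions of these probe sets on their transcripts were not analysed here.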
